A study of Homo sapiens with 6 samples.

Results

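The genes described here encode the nuclear subunits of oxidative phosphorylation, the respiratory chain and the ATP synthase of the inner mitochondrial membrane. Members were the array probesets that the platform annotation paired with 1 gene symbol, where that symbol named a numbered NDUFA, NDUFB, NDUFC, NDUFS or NDUFV gene, SDHA to SDHD, a UQCR gene, CYC1, a COX4 to COX8 subunit gene or an ATP5 gene. Assembly factors of the NDUFAF family were left out. The rule found 87 probesets for 81 genes, among 32321 probesets on the array and 18404 genes with a 1-symbol probeset. By complex there were 33 genes of complex I, 3 of complex II, 9 of complex III, 17 of complex IV and 19 of complex V. The symbols also took in 2 pseudogenes (UQCRBP1 and ATP5F1EP2), the ATP synthase inhibitor ATP5IF1 and the supercomplex factor COX7A2L, which left 77 structural subunits. The rule used symbols alone and no measured value.

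Oxidative phosphorylation moves electrons from NADH and succinate through complexes I and II to ubiquinone, through complex III to cytochrome c and through complex IV to oxygen. Complexes I, III and IV pump protons across the inner membrane, and complex V, the ATP synthase, lets them back to make ATP. Most subunits are encoded in the nucleus and imported, while a small set at the core of complexes I, III, IV and V is encoded in mitochondrial DNA, so that the supply of subunits depends on both genomes.

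RNA was measured on 6 Affymetrix arrays, 3 per group. The parental group was the unmodified HEK293 Flp-In line, an established human embryonic kidney line with a single genomic site for inserting a transgene. The TRIM71 group was 1 line derived from it that expressed TRIM71, a stem cell factor that binds RNA, constitutively and with a FLAG-HA tag. Both groups grew in DMEM with 2 mM glutamine and 10% FCS, and hygromycin B at 50 ug/ml was named for the TRIM71 line only. What belongs to the transgene, to the drug or to the line itself cannot be told apart. The labels state triplicates without saying whether cultures were separate, so the p-values rest on a spread between samples that may be technical only.

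TRIM71 itself stood at 7.23, 7.54 and 7.44 (log2 level) on the parental arrays and at 10.63, 10.86 and 10.72 on the arrays of the TRIM71 line. The groups lay far apart, with a 10.1-fold difference (limma, Benjamini-Hochberg adjusted p = 6.8e-05; two-sided exact permutation p = 0.1, the smallest that 3 against 3 arrays allow). Arrays of 1 group correlated at 0.996 to 0.997 over all probesets (Pearson), and arrays of different groups at 0.991 to 0.994. Of 11 HEK293 markers measured, 9 reached the median of all probesets (6.94 log2). Their mean level per array ran from 9.41 to 9.46 in the parental line and from 9.30 to 9.35 in the TRIM71 line. Of the markers of other cell types, none of 4 leukocyte, 4 endothelial, 4 muscle or heart and 1 erythroid genes reached that median, against 1 of 6 fibroblast and 1 of 2 hepatocyte genes. Some markers moved with the group: of the HEK293 markers NEFL fell 2.72-fold, INA 1.54-fold and KRT8 1.17-fold, while CDH2 rose 1.34-fold, VIM 1.32-fold and LHX1 1.23-fold. Of the other markers, endothelial KDR rose 2.71-fold (adjusted p = 0.003) and fibroblast PDGFRA 1.27-fold (adjusted p = 0.005), both from levels below the median of all probesets, and their part in the results was not tested. Respiratory chain genes were well measured in this line: 73 of the 81 members reached the median of all probesets.

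Few of the 81 members differed between the lines, and 5 of the 7 that fell belonged to complexes II and III, a share that did not hold under every setting. In the TRIM71 line 7 members fell (UQCRQ, NDUFV1, UQCRC1, CYC1, SDHD, COX8A and SDHA), 2 rose (NDUFB4 and NDUFB2) and 72 did not pass the test at an adjusted p of 0.05 (limma, Benjamini-Hochberg over all probesets). The called share of members was 11.1%, beside 22.2% of all 18404 genes, and 31.2% of the 11100 genes at or above the median probeset. Lower calls made up 8.64% of members and 12.2% of all genes, and higher calls 2.47% and 10.0%. These shares were set side by side without a test of the difference. The count of members that fell was 4 without parental replicate 3, TRIM71 replicate 1 or TRIM71 replicate 3, and the count that rose was 0 when any array but parental replicate 1 was left out (3 without that one). With an intensity trend in the fit, 15 fell and 4 rose, or 23.5% of members beside 27.0% of all genes. Those that fell were then 7 of complex I, 2 of complex II, 4 of complex III, 1 of complex IV and 1 of complex V. Only UQCRQ was called with a change of at least 1.5-fold (1.23% of members), which 3.97% of all genes reached.

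The size of the differences was small. The median difference over members was -0.05 (TRIM71 line minus parental, log2), beside -0.01 over all genes, and 53 members lay below 0 and 28 above. The median absolute difference was 0.10 log2 for members and 0.11 for all genes. For 79 of the 81 members (97.5%) the 95% confidence interval lay inside a 1.5-fold change in either direction, beside 90.9% of all genes, and for 48 it lay inside a 1.2-fold change. UQCRQ and UQCRH, both of complex III, were the exceptions at 1.5-fold. The 3 TRIM71 arrays all lay on one side of the 3 parental arrays in 44 members (54.3%, with 33 lower and 11 higher), beside 43.6% of all genes. Among genes at or above the median probeset, where 73 of the 81 members lay, that share was 58.9%. In bulk RNA, fewer cells that express a gene and less RNA per cell cannot be told apart. RMA sets the probe values of all arrays to a common distribution before it summarises them by probeset. The medians of the deposited values still ran from 6.90 (parental replicate 1) to 6.97 log2 (parental replicate 3).

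**Figure D1:**
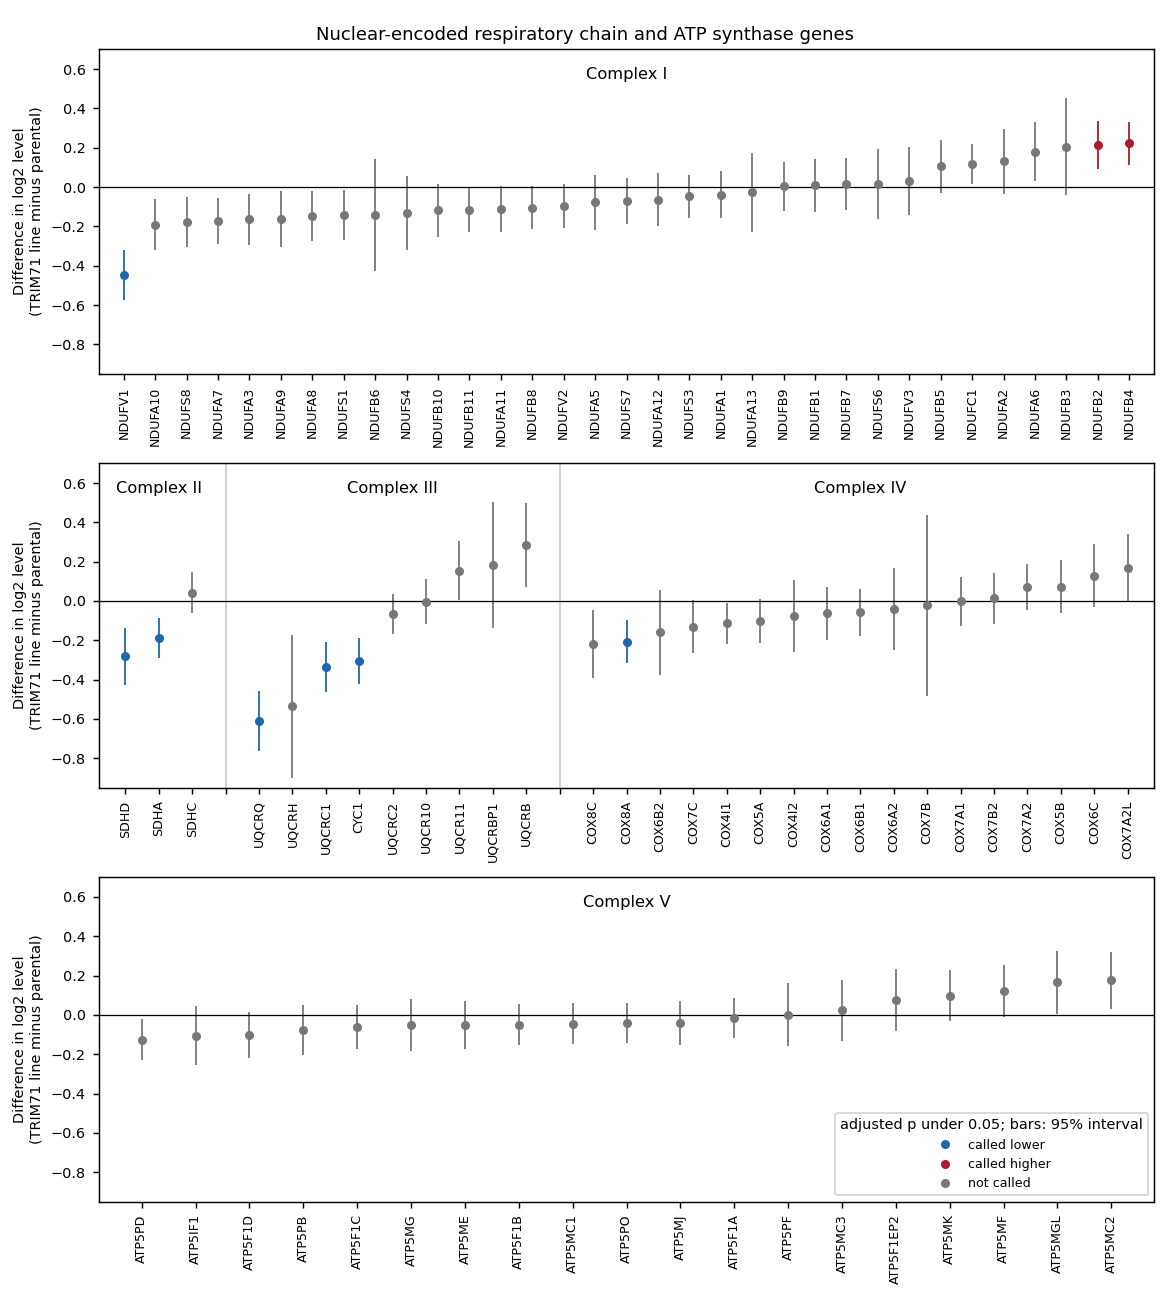
Each point is 1 of the 81 members, grouped by complex, at its difference in log2 level (TRIM71 line minus parental, vertical axis), with bars for the 95% confidence interval from the limma fit over 3 arrays per group; colours mark members called lower, called higher or not called. The 7 lower calls include 3 members of complex III and 2 of complex II, and none of the 19 members of complex V was called.

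Complex I, the NADH dehydrogenase, had 1 lower and 2 higher calls among 33 genes (9.09%), and its median difference was -0.07. Of all genes 22.2% were called, and 31.2% of those at or above the median probeset, where all 33 lay. The catalytic core was represented by 6 genes, all of them below 0, between -0.45 and -0.05. NDUFV1, on chromosome 11, which carries the FMN that takes electrons from NADH, fell furthest (probeset 7941946). Its parental arrays read 9.83, 9.96 and 9.95, and its TRIM71 arrays 9.46, 9.48 and 9.46. The TRIM71 arrays were tightly grouped and all below the parental ones, a 1.36-fold decrease (log2 difference -0.45, SE 0.05, adjusted p = 0.003). That call held in each of 6 fits that left out 1 array. NDUFS8, an iron-sulphur subunit, differed by -0.18 (adjusted p = 0.067), and NDUFS1, the largest core subunit, by -0.14 (adjusted p = 0.13), so neither passed.

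Among the 27 accessory subunits of complex I, 2 rose and none passed as lower (6 had an unadjusted p under 0.05 and lay below 0). Over all genes, 6707 of 18404 had an unadjusted p under 0.05, 3583 of them lower. Among the 11100 genes at or above the median probeset, where all 27 lay, 5449 did, 2816 of them lower. None of the 12 NDUFA genes was called by limma, although 6 had an unadjusted p under 0.05, 5 of them lower, and their median difference was -0.10. NDUFA10 showed the largest difference among them, with parental arrays at 9.02, 9.16 and 9.14 and TRIM71 arrays at 8.89, 8.93 and 8.93. Its groups did not overlap, and its difference of -0.19 did not pass (adjusted p = 0.063; 0.056 for NDUFA7, the member closest to the threshold). Without parental replicate 1 the difference of NDUFA10 was -0.23 and it passed (adjusted p = 0.039).

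The 11 NDUFB genes, which lie in the membrane arm, held both higher calls of all members, and their median difference was 0.01. NDUFB4, on chromosome 3 (probeset 8093314), read 10.15, 10.10 and 10.14 in the parental line and 10.33, 10.39 and 10.34 in the TRIM71 line. The groups were separate and the rise was 1.17-fold (log2 difference 0.22, SE 0.05, adjusted p = 0.020). NDUFB2, on chromosome 7 (probeset 8136602), read 8.07, 8.01 and 7.96 against 8.21, 8.20 and 8.27. It rose 1.16-fold (log2 difference 0.21, SE 0.05, adjusted p = 0.034), again without overlap. Both calls held without parental replicate 1 and ended without any one of the other 5 arrays, at adjusted p-values of 0.053 to 0.081 for NDUFB4 and 0.081 to 0.11 for NDUFB2. NDUFB3 had as large a difference (0.21), but its parental arrays at 8.59, 8.39 and 8.44 overlapped the TRIM71 arrays at 8.59, 8.88 and 8.55 (adjusted p = 0.25).

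NDUFS4, an accessory subunit of the NADH-oxidising arm, was the member whose probesets disagreed on the call. Its brighter probeset read 9.14, 9.15 and 9.19 in the parental line and 8.98, 9.19 and 8.92 in the TRIM71 line (difference -0.13, adjusted p = 0.33). The dimmer one, below the median of all probesets, read 4.83, 4.58 and 4.67 against 5.09, 5.03 and 4.98 (difference 0.34, adjusted p = 0.026). No direction can be given for this gene. Of the 6 members with 2 probesets, only NDUFS4 and SDHD had a probeset that was called. In NDUFV2 (-0.10 and 0.04) and ATP5MK (0.10 and -0.04) the brighter and the dimmer probeset also lay on opposite sides of 0, with none called.

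**Figure D2:**
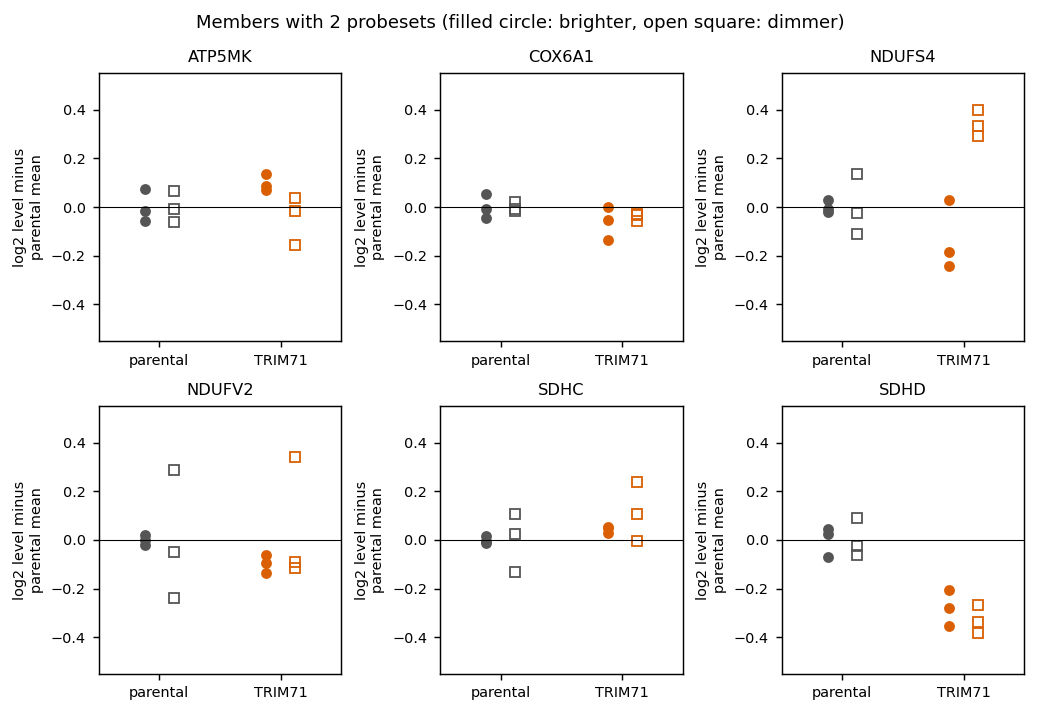
The 6 members with 2 probesets are shown by array, parental arrays left and TRIM71 arrays right, as log2 level minus the parental mean of the same probeset (filled circles, brighter probeset; open squares, dimmer probeset). Both probesets of SDHD are lower in the TRIM71 line, whereas those of NDUFS4 lie on opposite sides of 0.

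Complex II, succinate dehydrogenase, is the one respiratory complex encoded entirely in the nucleus, and it also serves the citric acid cycle. Of the 3 genes measured by a 1-symbol probeset 2 fell (66.7%), and the median difference was -0.19. Of all genes 22.2% were called, with 12.2% lower. Among those at or above the median probeset, where all 3 lay, it was 31.2%, with 16.6% lower. SDHA, on chromosome 5, the flavoprotein that oxidises succinate (probeset 8104166), read 11.37, 11.40 and 11.36 in the parental line and 11.18, 11.20 and 11.19 in the TRIM71 line. The arrays of each group lay within a few hundredths of each other, so that a 1.14-fold decrease passed (log2 difference -0.19, SE 0.04, adjusted p = 0.031). That call ended in each of the 6 fits that left out 1 array (adjusted p = 0.068 to 0.11). The annotation shares further probesets between SDHA, SDHAP1, SDHAP2 and SDHAP3, which name no single gene. These differed by -0.08 (limma adjusted p = 0.41) and -0.16 (adjusted p = 0.060), and neither passed.

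SDHD, on chromosome 11, a membrane anchor that helps to bind ubiquinone, fell on both probesets that the annotation gave to it. Where these match the genome was not looked up, so that both read the chromosome 11 gene was not tested. The brighter (probeset 7899016) read 11.03, 10.92 and 11.01 in the parental line and 10.70, 10.78 and 10.63 in the TRIM71 line (log2 difference -0.28, SE 0.06, adjusted p = 0.025, 1.21-fold). The dimmer (probeset 7943853) read 9.07, 8.92 and 8.96 against 8.60, 8.65 and 8.72 (log2 difference -0.33, adjusted p = 0.015). No TRIM71 array of either probeset reached a parental one. The call of the brighter probeset ended without parental replicate 1 or 3 or TRIM71 replicate 1 or 3 (adjusted p = 0.069 to 0.082). SDHC, the other anchor, did not pass, with 12.01, 11.98 and 11.99 against 12.02, 12.04 and 12.04 (difference 0.04, 95% interval -0.06 to 0.15, adjusted p = 0.58), and its dimmer probeset differed by 0.11 (adjusted p = 0.47).

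Complex III, the cytochrome bc1 complex, passes electrons from ubiquinol to cytochrome c. It had 3 lower calls among 9 genes (33.3%), and its median was -0.07 over all of them and -0.19 without the pseudogene. Of all genes 22.2% were called, with 12.2% lower. Among those at or above the median probeset, where 8 of the 9 lay, it was 31.2%, with 16.6% lower. UQCRQ, on chromosome 5, a small accessory subunit (probeset 8107998), was the member that fell furthest. It read 10.24, 10.14 and 10.08 on the parental arrays and 9.58, 9.58 and 9.47 on the TRIM71 arrays. The gap between the groups was several times the spread within them, a 1.53-fold decrease (log2 difference -0.61, SE 0.06, 95% interval -0.76 to -0.46, adjusted p = 0.002). It was also the only member called when the test was set against a fold of 1.2.

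Both other calls of complex III were in its core. UQCRC1, on chromosome 3, the first core protein (probeset 8087100), read 9.29, 9.22 and 9.16 against 8.89, 8.85 and 8.91 (log2 difference -0.34, SE 0.05, adjusted p = 0.008, 1.26-fold). CYC1, cytochrome c1, the haem subunit that hands electrons to cytochrome c (probeset 8148728), read 10.25, 10.35 and 10.33 against 9.98, 10.02 and 10.00 (log2 difference -0.31, SE 0.05, adjusted p = 0.009, 1.24-fold). In both genes every TRIM71 array lay below every parental array, and the calls of UQCRQ, UQCRC1 and CYC1 held in each of the 6 fits that left out 1 array. UQCRC2, the second core protein, differed by only -0.07 (95% interval -0.17 to 0.04, adjusted p = 0.38).

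The accessory subunits of complex III were uneven. UQCRH, the acidic hinge protein, read 7.70, 7.51 and 7.48 in the parental line and 6.94, 7.35 and 6.78 in the TRIM71 line. It had a difference nearly as large as that of UQCRQ, but the TRIM71 arrays were scattered and it did not pass (difference -0.54, SE 0.15, adjusted p = 0.059). Without TRIM71 replicate 2, the highest of that group, the difference was -0.70 and it passed (adjusted p = 0.014). A probeset that the annotation shares between UQCRH, UQCRHL and GNA13 was lower as well (10.51 to 10.29, difference -0.22, adjusted p = 0.023), and names no single gene. Shared probesets that name NDUFS5, NDUFC2 and ATP5F1E, of complexes I and V, differed by 0.13, -0.00 and -0.06. None of these passed (limma adjusted p of 0.12 or more). UQCRB, a small subunit, stood at 7.93 ± 0.07 (SD, n = 3) in the parental line and 8.21 ± 0.16 (SD, n = 3) in the TRIM71 line. Its groups did not overlap, and the difference of 0.28 did not pass (limma adjusted p = 0.080). Its pseudogene UQCRBP1 differed by 0.18 (adjusted p = 0.43), and array probes may not separate such near-identical copies. UQCR10 differed by -0.00 (95% interval -0.12 to 0.11).

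**Figure D3:**
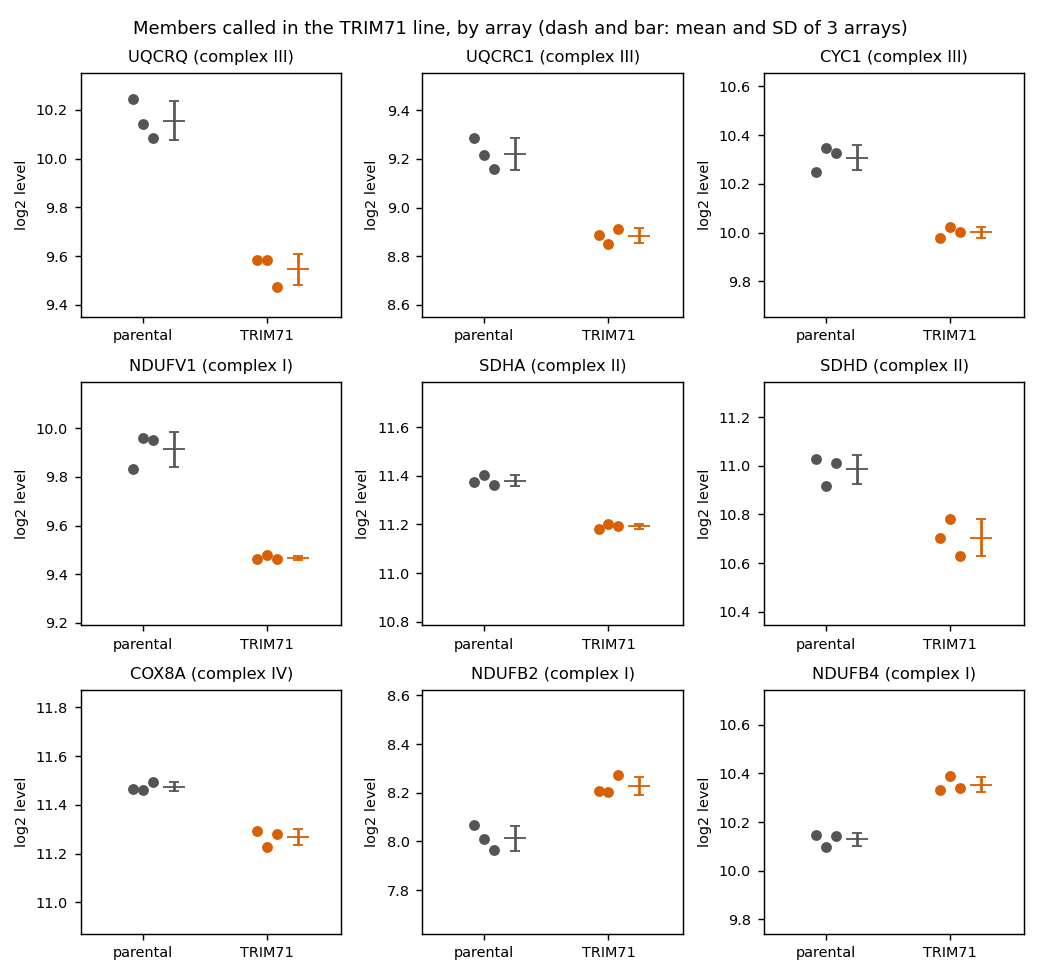
The 9 called members are drawn by array, with log2 level on the vertical axis (each panel spans 1 log2 unit), dots for the 3 parental and 3 TRIM71 arrays, and a dash with a bar for the mean and SD. The groups are separate in every panel, and the widest gap is that of UQCRQ, from 10.08 for the lowest parental array to 9.58 for the highest TRIM71 array.

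Complex IV, cytochrome c oxidase, reduces oxygen, and its nuclear subunits surround a mitochondrially encoded core. Of 17 genes 1 was called (5.88%), and the median difference was -0.06. Of all genes 22.2% were called, and 31.2% of those at or above the median probeset, where 12 of the 17 lay. COX8A, on chromosome 11, the widely expressed form of subunit VIII (probeset 7940835), read 11.47, 11.46 and 11.50 in the parental line and 11.29, 11.23 and 11.28 in the TRIM71 line. The groups were tight and apart, and the decrease was 1.15-fold (log2 difference -0.21, SE 0.05, adjusted p = 0.026). That call ended in each of the 6 fits that left out 1 array (adjusted p = 0.060 to 0.087). The supercomplex factor COX7A2L was the furthest above 0 in this complex (9.48, 9.31 and 9.23 against 9.51, 9.48 and 9.54), with groups that overlapped (difference 0.17, adjusted p = 0.18). Without parental replicate 1 the difference was 0.24 and it passed (adjusted p = 0.047).

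Several subunits of complex IV exist as a common form and a form of muscle, testis or lung. Each is given here against its own parental value, since levels of different probesets are not comparable. COX4I1 differed by -0.11 (adjusted p = 0.14) and COX4I2 by -0.08 (adjusted p = 0.58). COX6A1 differed by -0.06 and the muscle form COX6A2 by -0.04, COX6B1 by -0.06 and the testis form COX6B2 by -0.16. COX7A2 differed by 0.07 and the muscle form COX7A1 by -0.00, and the signs of COX6A2 and COX7A1 turned under some alternatives. No isoform outside COX8A passed the test. COX8C, the testis form of subunit VIII, read 6.26, 6.33 and 6.18 in the parental line and 6.09, 5.91 and 6.11 in the TRIM71 line (difference -0.22, adjusted p = 0.093). COX4I2, COX6B2, COX7A1, COX7B2 and COX8C all lay below the median of all probesets, where a difference is compressed. NDUFA4 and NDUFA4L2 were not analysed here.

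Complex V, the ATP synthase, had the smallest median absolute difference of the 5 complexes, 0.06 log2, and a median difference of -0.04. None of its 19 genes was called by limma, 3 had an unadjusted p under 0.05 (1 lower and 2 higher), and the smallest adjusted p was 0.10, for ATP5PD. Of all genes 22.2% were called, and 6707 of 18404 had an unadjusted p under 0.05. Among the 11100 genes at or above the median probeset, where 17 of the 19 lay, these were 31.2% and 5449. Under the alternatives tried, including those that left out 1 array, at most 2 of its genes were called. All 19 had a 95% interval inside a 1.5-fold change, and 17 inside a 1.2-fold change, with bounds between -0.26 and 0.33 log2. In the catalytic head, ATP5F1A, the alpha subunit, read 11.19, 11.17 and 11.16 against 11.14, 11.17 and 11.17, and ATP5F1B, the catalytic beta subunit, 12.75, 12.75 and 12.71 against 12.69, 12.67 and 12.69. The 4 head genes measured all lay slightly below 0, with a median of -0.06.

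The 3 genes for subunit c, which form the rotor ring and encode the same mature protein, did not move together. ATP5MC1 differed by -0.05 (adjusted p = 0.56), ATP5MC2 by 0.18 (adjusted p = 0.11) and the dim ATP5MC3 by 0.02 (adjusted p = 0.86, with a sign that turned under some alternatives), and none passed. ATP5MC2 read 9.80, 10.00 and 9.91 in the parental line and 10.07, 10.08 and 10.09 in the TRIM71 line, the largest difference in the complex. ATP5MGL, a paralog of the membrane subunit ATP5MG, followed at 0.17 (adjusted p = 0.16). ATP5IF1, which inhibits ATP hydrolysis by the enzyme, differed by -0.11 (adjusted p = 0.33).

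The other genes of the pathway were taken list by list and described by counts, without a set test. No mitochondrially encoded subunit was represented by a 1-symbol probeset, and those genes were not analysed here. Assembly factors had calls in both directions: of 18 factors for complex I, 1 fell (NUBPL, difference -0.23, adjusted p = 0.032) and 1 rose (NDUFAF1, 0.29, adjusted p = 0.026). Of 6 factors for complex III, UQCC3 fell (-0.38, adjusted p = 0.025) and UQCC1 rose (0.36, adjusted p = 0.007), although both take part in the biogenesis of cytochrome b. Of 19 factors for complex IV, the copper chaperone COX11 fell (-0.20, adjusted p = 0.042) and COA7 rose (0.25, adjusted p = 0.043). SDHAF4, 1 of 3 complex II factors, fell (-0.19, adjusted p = 0.039), as did ATPAF2, 1 of 4 ATP synthase factors (-0.25, adjusted p = 0.042). The shares called were 11.1% of factors for complex I, 33.3% for II, 33.3% for III, 10.5% for IV and 25.0% for the ATP synthase. Of all genes 22.2% were called, and 31.2% of those at or above the median probeset.

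Of these assembly factors only UQCC1 held its call in all 6 fits that left out 1 array. SDHAF4 (adjusted p = 0.074 to 0.13), COX11 (0.061 to 0.11) and ATPAF2 (0.053 to 0.13) lost theirs in all 6. NUBPL kept its call only without parental replicate 3 (otherwise 0.060 to 0.11), and NDUFAF1 (0.060 to 0.092) and COA7 (0.082 to 0.13) only without parental replicate 1. UQCC3 lost its call without parental replicate 1 or 3 or TRIM71 replicate 1 or 3 (0.062 to 0.090).

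The citric acid cycle feeds electrons to the chain. Of its 12 genes measured 5 fell and 1 rose (50.0%, beside 22.2% of all genes and 31.2% of those at or above the median probeset, where all 12 lay), with a median of -0.14. IDH2, the mitochondrial NADP-dependent isocitrate dehydrogenase, read 9.96, 10.11 and 10.01 in the parental line and 9.06, 9.19 and 9.21 in the TRIM71 line, and fell 1.84-fold (difference -0.88, adjusted p = 7.1e-04). That was a larger decrease than that of any oxidative phosphorylation member. Both DLST and OGDH are parts of the 2-oxoglutarate dehydrogenase complex, and they went opposite ways: DLST fell (-0.40, adjusted p = 0.008) and OGDH rose (0.25, adjusted p = 0.015). The OGDH call ended without parental replicate 2 or 3 or TRIM71 replicate 2 (adjusted p = 0.053 to 0.057), whereas those of IDH2 and DLST held in all 6 fits.

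The electron carrier list gave 2 lower calls among 8 genes, both from the route that brings electrons from fatty acid oxidation to ubiquinone. That was 25.0%, beside 22.2% of all genes and 31.2% of those at or above the median probeset, where all 8 lay. The list holds COX7A2L, which is also a member, and NDUFAB1, a complex I subunit that the symbol rule did not take in. ETFB, a subunit of the electron transfer flavoprotein, read 8.89, 8.91 and 8.92 against 8.36, 8.33 and 8.52 (difference -0.50, adjusted p = 0.004, held in all 6 fits). ETFDH, which passes those electrons on, read 9.48, 9.31 and 9.29 against 8.97, 9.12 and 8.89 (-0.37, adjusted p = 0.029), and its call held only without TRIM71 replicate 2 (otherwise 0.056 to 0.096). ETFA, the partner subunit of ETFB, did not pass (-0.02, 95% interval -0.13 to 0.09, adjusted p = 0.84). Cytochrome c itself, CYCS, differed by -0.08 (adjusted p = 0.54).

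Of 74 genes with symbols of mitochondrial ribosomal proteins, which translate the mitochondrially encoded subunits, 15 fell and 4 rose, with a median of -0.06. That was 25.7%, beside 22.2% of all genes and 31.2% of those at or above the median probeset, where 72 of the 74 lay. The 74 include MRPS31P5, a pseudogene by its symbol, which was not called. MRPS18B (-0.43, adjusted p = 0.002) and MRPL49 (-0.44, adjusted p = 0.002) had the lower calls with the smallest adjusted p, which held in all 6 fits, and MRPL2 differed by more (-0.49, adjusted p = 0.002). MRPL35 and MRPL20 rose (each 0.22, adjusted p = 0.020 and 0.024), with calls that held only without parental replicate 1 (otherwise 0.056 to 0.079 and 0.055 to 0.090). Of 13 genes for cristae and inner membrane organisation, PHB2, a prohibitin, fell (-0.24, adjusted p = 0.015), and so did the MICOS subunit APOOL (-0.23, adjusted p = 0.041). That made 15.4% of the list called, beside 22.2% of all genes. The PHB2 call ended without parental replicate 2 or TRIM71 replicate 1 or 2 (0.054 to 0.060), and that of APOOL held only without parental replicate 3 (otherwise 0.085 to 0.13).

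**Figure D4:**
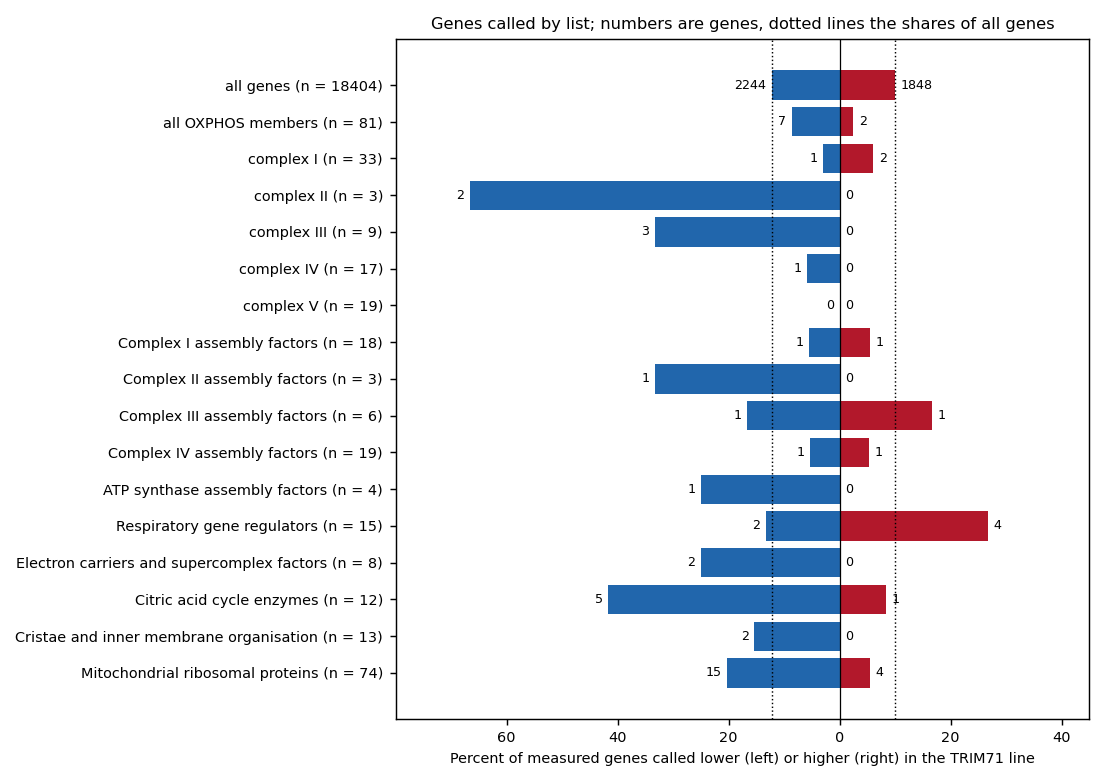
Bars give the percent of measured genes called lower (left) and higher (right) in the TRIM71 line for each complex and each other list of the pathway, with the number of genes beside each bar; dotted lines mark the shares of all genes, 12.2% lower and 10.0% higher. Complex V has no bar, and the citric acid cycle list has 5 genes lower and 1 higher of 12.

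Of 15 regulators of respiratory genes 2 fell and 4 rose, where 22.2% of all genes were called, and 31.2% of those at or above the median probeset. PPARGC1A, a coactivator known for driving mitochondrial biogenesis, read 8.75, 8.67 and 8.58 against 8.12, 8.32 and 8.25 and fell 1.35-fold (difference -0.44, adjusted p = 0.010). Its relative PPRC1 read 8.96, 8.87 and 8.99 against 9.38, 9.44 and 9.40 and rose 1.38-fold (0.47, adjusted p = 0.003). The relatives thus went opposite ways, each without overlap of the groups and with a call that held in all 6 fits. GABPA, the ETS-family subunit of nuclear respiratory factor 2, read 10.30, 10.08 and 10.01 against 9.85, 9.73 and 9.79 (-0.34, adjusted p = 0.039). Its call held only without parental replicate 3 (otherwise 0.053 to 0.12).

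The other 3 calls among the regulators were of factors for mitochondrial DNA. MTERF1, a transcription terminator, rose by 0.54 (adjusted p = 0.006, held in all 6 fits), TFB2M, a transcription initiation factor, by 0.29 (adjusted p = 0.048), and TWNK, the replicative helicase, by 0.26 (adjusted p = 0.048). The TFB2M call held only without parental replicate 3 (otherwise 0.081 to 0.14) and the TWNK call only without parental replicate 1 (otherwise 0.073 to 0.15). NRF1 differed by 0.05 (adjusted p = 0.61), YY1 by -0.19 (adjusted p = 0.067) and TFAM, which packages mitochondrial DNA, by -0.14 (adjusted p = 0.13), and none passed. Other factors for mitochondrial DNA did not pass either: POLG, its polymerase, differed by -0.19 (adjusted p = 0.069), TFB1M by -0.16 (adjusted p = 0.15) and POLRMT by -0.00 (adjusted p = 0.98).

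Promoters of these genes are known for sites of NRF1, of GABPA and of YY1, so the letters of such sites were counted in RefSeq windows of GRCh38.p14, 250 bases before to 50 after the gene start, 1 window per gene. Of the 81 members 66 had a window. The ETS letters CCGGAAG, on either strand, were in 19 (28.8%), beside 10.7% of 27305 windows of the whole table. The NRF1 letters GCGCATGCG were in 10 (15.2%, against 2.1%), their shorter form GCGCATGC, which lies inside them, in 12 (18.2%, against 3.27%), and the YY1 letters AAGATGGCG in 7 (10.6%, against 1.85%). Among the 6 lower members with a window, 3 held the ETS letters, as did 16 of 58 members that were not called (27.6%). A match describes these letters and is neither a bound site nor a cause.

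The 120 bases before the start are shown for those 3 lower members with the ETS letters (CCGGAAG or its complement CTTCCGG) in capitals, and, in SDHD, the overlapping NRF1 letters of both strands as well. They lie at chr5:132866522-132866641, chr11:112086753-112086872 and chr11:63974500-63974619, all on the plus strand, and read 5′ to 3′.
UQCRQ: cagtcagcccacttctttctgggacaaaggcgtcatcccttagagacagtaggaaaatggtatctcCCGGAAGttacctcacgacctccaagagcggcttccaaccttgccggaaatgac
SDHD: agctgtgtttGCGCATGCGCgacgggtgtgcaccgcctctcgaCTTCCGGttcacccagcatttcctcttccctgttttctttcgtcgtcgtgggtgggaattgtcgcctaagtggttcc
COX8A: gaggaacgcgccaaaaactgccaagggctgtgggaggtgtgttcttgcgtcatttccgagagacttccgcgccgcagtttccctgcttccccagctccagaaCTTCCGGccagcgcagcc
The match begins 54 bases before the start in UQCRQ, 77 in SDHD and 18 in COX8A. In SDHD the NRF1 letters begin 110 bases before the start. The NDUFV1 window, of the member with the second largest call by size, held none of the 4 motifs, and that of NDUFB4, which rose, held the NRF1 letters 159 bases before the start.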

How the data were processed

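The authors deposited log2 expression levels for each array. RMA was the method and affy a tool, per the submitters' processing notes. The versions, the array annotation and the build are not given in the sources used here. Per the labels' protocols, 100 ng of Trizol-extracted RNA was amplified and labelled. Groups came from the sample titles.

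Of 32321 probesets the annotation paired 19158 with 1 symbol, 1388 with several and 11775 with none, and only the first kind named genes. All 81 members matched the RefSeq table of GRCh38.p14, used for names, chromosomes and promoter windows. Where a gene had several probesets, the one with the highest mean stood for it, without a check of where it matches the genome. In R 4.3.3, limma 3.58.1 fitted the group as the only term to every probeset (lmFit, eBayes without a trend, dim probesets kept), with Benjamini-Hochberg adjustment over all probesets and calls under 0.05. The procedure was tested on simulated data, where 33 of 50 seeded 1.5-fold changes and 47 of 50 seeded 2-fold changes were recovered. Changes were seeded only in probesets at or above the median, and 188 of 32321 probesets were called. In the data 4092 genes were called. The adjustment depends on how many probesets change, so the recovered shares need not hold here. No change below 1.5-fold was seeded, so that test cannot speak for smaller differences. With 3 arrays per group, the number of arrays limits the precision.

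The text names TRIM71, every called member, the 2 uncalled members per complex with the largest difference, members whose probesets disagree, isoform families, and in each other list up to 4 called genes by adjusted p (2 per direction if both occurred) with every called regulator. Other genes named, including NDUFS8, NDUFS1, NDUFA7, UQCRC2, UQCR10, ATP5PD, ATP5F1A, ATP5F1B, ATP5IF1, UQCRBP1, CYCS, ETFA, MRPL2, POLG, TFB1M, POLRMT, NRF1, YY1 and TFAM, were chosen after their values were seen. The members and lists were chosen with earlier results of these data known. Alternatives were other estimates of the spread, normalizations, filters, probeset rules, thresholds, a replicate block and each array left out.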

Additional observations from a re-analysis of the deposited data

How the results depend on the processing

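UQCRQ, NDUFV1, UQCRC1 and CYC1 were called lower under every alternative except the test against a fold of 1.2, where only UQCRQ was. The count of lower members, 7, became 15 with an intensity trend, 14 with a robust trend, 15 of 73 without dim probesets, and 13 with 1 probeset per gene before the fit or with the mean of a gene's probesets. It was 4 at an adjusted p under 0.01 and 1 against a fold of 1.2, and 4 to 6 with 1 array left out. SDHA also lost its call with median centring. The count of higher members, 2, became 4 with either trend, 6 without dim probesets, and 0 with median centring, at an adjusted p under 0.01 and against a fold of 1.2, and 0 to 3 with 1 array left out. By count, complexes II and III did not hold most of the lower calls in these settings with more calls. Complexes I, II and III, of 33, 3 and 9 genes, had 7, 2 and 4 with an intensity trend. They had 6, 2 and 4 with a robust trend or without dim probesets, and 5, 2 and 4 with 1 probeset per gene or the mean of probesets. As a share of the genes measured, lower calls stayed more frequent in complexes II and III than in the other complexes in these settings. Under either trend, 27.0% and 26.7% of all genes were called, beside 23.5% and 22.2% of members. Without dim probesets it was 44.5% beside 28.8%. With 1 probeset per gene it was 29.4% beside 19.8%, and with the mean of probesets 29.2% beside 19.8%.

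Over all genes, 1106 were lower and 792 higher at an adjusted p under 0.01, 471 and 232 against a fold of 1.2, and 1336 to 1709 and 979 to 1485 with 1 array left out. The median of complex III was -0.19 without dim probesets or with structural subunits alone, that of complex I -0.048 with the mean of probesets, and that of complex IV -0.080 with array weights. With 1 array left out these ran from -0.087 to -0.052 for complex I and from -0.094 to -0.066 for complex IV. Signs turned for NDUFS4 with the mean of its probesets (0.10), for COX7A1 with array weights (0.0072) and without parental replicate 1 or TRIM71 replicate 1 (-0.027 to 0.024 over the 6 fits that left out 1 array), for ATP5MC3 with array weights (-0.0083) and without parental replicate 1 or TRIM71 replicate 3 (-0.014 to 0.073), and for COX6A2 without TRIM71 replicate 1 (-0.11 to 0.019). The causes were not tested.

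Replicate numbers did not pair the arrays: same-numbered arrays correlated at 0.07, -0.19 and 0.11 in their deviations. With the replicate block, 4 members were lower and 0 higher, beside 1371 and 1019 of all genes.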

Other observations

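Within the parental group, replicate 1 was the highest array in 44 of 81 members (54.3%), beside 33.0% of all genes. In the TRIM71 group, replicate 2 was highest in 41 members (50.6%), beside 40.9% of all genes. Of 12 named genes whose call held in only 1 of the 6 fits that left out 1 array, 7 held it without parental replicate 1. These were NDUFB2, NDUFB4, NDUFAF1, COA7, MRPL35, MRPL20 and TWNK, each higher in the TRIM71 line.

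Measured genes next to the called members were looked up, 2 places on each side, 36 genes in all. Of these 7 fell, 3 rose and 26 were not called, so that 27.8% were called, near the 22.2% of all genes. GDF9, beside UQCRQ, fell by 0.56 on the log2 scale (limma adjusted p = 0.006), nearly as far as UQCRQ. On the other side LEAP2 differed by 0.00, and AFF4, the next gene, by -0.19 (adjusted p = 0.039). GPAA1, beside CYC1, differed by -0.35 (adjusted p = 0.008), further than CYC1 (-0.31). OTUB1 and MACROD1, beside COX8A, fell by 0.28 and 0.29 on the log2 scale, and FSTL1, beside NDUFB4, rose by 0.74. The other called neighbours were NUDT8 (-0.30) and IL18 (-0.37), which fell, and GSTP1 (0.21) and SLC26A6 (0.38), which rose.

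On chromosome 2, 28.0% of 1154 genes were called higher, beside 10.0% of all genes, with a median difference of 0.08. The 6 members that lie there had a median of 0.05, and none was called by limma. An unadjusted p under 0.05 was found for 2 of them, both lower, beside 566 of the 1154 genes of the chromosome.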
